A study of Mus musculus with 46 samples.

Results

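E017 is a candidate cis-regulatory element (cCRE), a DNA fragment picked as a possible enhancer, from the Tfcp2l1 locus on mouse chromosome 1. It lay at chr1:118311123-118311573 of mm10, so its ends were 450 bp apart. All constructs of the Tfcp2l1 Upstream library that carried E017 as first or second fragment were taken, which gave 849 of the 55979 constructs with a pair of fragments in that library and of 89293 constructs in the whole Upstream table. Of the 849, 34 held E017 before a promoter, 51 held a promoter before E017, and 764 paired E017 with another cCRE, with E017 first in 319 and second in 445. E017 had been chosen by its measured activity, its high mean boost over promoters placed second, so the 34 constructs of that class are described and not tested, also where they are set against other constructs.

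The study asked how enhancers and promoters combine when both are taken out of their chromosomal place. Fragments were cloned upstream of a barcoded reporter and measured in E14TG2a mouse embryonic stem cells, an established line kept in 2i+LIF medium, which holds such cells in a naive state. In each of 3 biological replicates, cells were nucleofected with the Tfcp2l1 libraries and RNA was collected 24 h later. Activity was the ratio of barcodes in reporter cDNA to barcodes in plasmid DNA, on a linear scale. All replicates received the same plasmid pool, so the spread given here does not include variation among the plasmids that carry 1 construct. Fragments are called first and second in the order the table lists them, because which of them lay next to the reporter is not given in the sources used here. Plus and minus are the table's orientation signs, and what they refer to is likewise not given. Of 9 promoter fragments of minus-strand genes, 6 were more active alone in plus, and of 2 of plus-strand genes 1 was. P018 (Ralb), P022 (Ptpn4) and P024 (Tmem177), the most active of the 9, gave 6.56, 7.32 and 2.73 in plus and 1.06, 0.550 and 0.188 in minus. P017 (Inhbb), P026 (Cfap221) and P027 (Tmem37), all low alone, went the other way. Of the 2 of plus-strand genes, P007 (Nifk) gave 16.5 in plus and 0.670 in minus. P031 (C1ql2) was low in both, at 0.0417 and 0.0420. The signs are therefore not read here as chromosome strands.

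In an enhancer reporter assay a promoter fixes where transcription starts, while an enhancer raises the output of a promoter and is often described as working in either orientation. Fragments around the start of a gene can score in both roles, since many promoters act as enhancers of others. Tsn, the gene at E017, encodes translin, a protein that binds RNA and single-stranded DNA and forms an RNA-cutting complex with its partner Tsnax. RefSeq places Tsn at chr1:118298514-118311461 on the minus strand of GRCm38.p6, the build that mm10 is drawn from. The outer end of this gene span therefore lay inside E017, with 338 bases of the fragment within the gene and 112 beyond it. The start site that RefSeq's promoter list gives for Tsn lay outside the fragment, 620 bp from its centre, and the listed promoter window ended 145 bases short of it. Only gene spans and listed start sites were used here, so E017 was not assigned to exon or intron. Of the 232 cCREs in the library, 4 held the outer 5′ end of a gene span, E017 among them. The nearest fragment classed as a promoter, P006, began 119 bp further out.

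The partner promoters below are shown because, placed second behind E017, they span its range of output. P018 in plus gave the highest activity, and P031 and P017 in plus reached 11.5 and 11.1. P022, P012 and P024 in plus gave more than P031 and P017 and are not shown. The last 3 gave some of the lowest activities (Tfcp2l1 in minus only). These promoters were chosen after those values were seen. Each line gives the 250 bases before the start site listed by RefSeq (GRCm38.p6), read in the direction of the gene. Capitals mark the motifs TATAAA (the TATA box), CCAAT (the CCAAT box) and GGGCGG (the GC box of Sp1 factors), each searched on both strands.
P031 (C1ql2, 250 bases, plus strand, chr1:120340332-120340581): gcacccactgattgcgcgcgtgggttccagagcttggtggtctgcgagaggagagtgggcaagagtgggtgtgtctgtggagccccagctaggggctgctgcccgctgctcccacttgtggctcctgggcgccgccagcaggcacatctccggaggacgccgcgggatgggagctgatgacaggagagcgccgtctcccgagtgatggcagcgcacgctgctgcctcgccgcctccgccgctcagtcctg
P017 (Inhbb, 250 bases, minus strand, chr1:119422249-119422498): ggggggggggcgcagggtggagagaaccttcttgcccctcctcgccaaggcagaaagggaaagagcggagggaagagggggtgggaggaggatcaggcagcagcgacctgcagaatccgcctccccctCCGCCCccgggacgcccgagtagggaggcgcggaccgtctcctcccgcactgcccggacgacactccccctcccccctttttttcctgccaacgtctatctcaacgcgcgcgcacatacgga
P018 (Ralb, 250 bases, minus strand, chr1:119504783-119505032): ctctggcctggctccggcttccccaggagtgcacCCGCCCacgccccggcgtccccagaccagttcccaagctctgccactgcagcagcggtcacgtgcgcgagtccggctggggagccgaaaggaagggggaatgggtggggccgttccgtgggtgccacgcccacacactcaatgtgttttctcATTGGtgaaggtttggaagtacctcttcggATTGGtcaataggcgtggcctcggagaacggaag
P011 (Tfcp2l1, 250 bases, plus strand, chr1:118627695-118627944): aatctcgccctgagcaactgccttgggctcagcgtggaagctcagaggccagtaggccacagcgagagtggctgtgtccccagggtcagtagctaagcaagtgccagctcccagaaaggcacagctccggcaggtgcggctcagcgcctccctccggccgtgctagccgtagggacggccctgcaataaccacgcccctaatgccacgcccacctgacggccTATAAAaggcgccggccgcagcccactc
P020 (3830432H09Rik, 250 bases, minus strand, chr1:119536166-119536415): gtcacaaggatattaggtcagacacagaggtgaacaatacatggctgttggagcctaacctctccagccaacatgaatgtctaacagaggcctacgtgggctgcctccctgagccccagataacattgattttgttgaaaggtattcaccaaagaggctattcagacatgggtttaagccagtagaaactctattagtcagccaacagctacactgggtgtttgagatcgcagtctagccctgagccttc
P033 (Marco, 250 bases, minus strand, chr1:120505025-120505274): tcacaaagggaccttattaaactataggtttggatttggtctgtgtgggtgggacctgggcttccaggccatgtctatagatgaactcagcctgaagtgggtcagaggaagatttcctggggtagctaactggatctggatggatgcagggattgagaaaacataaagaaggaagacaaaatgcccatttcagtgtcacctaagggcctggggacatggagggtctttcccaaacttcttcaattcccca
Among all 32817 listed promoter windows of this length, 12.4% held TATAAA, 33.8% held CCAAT and 32.7% held GGGCGG. The Ralb window held 2 matches of CCAAT and 1 of GGGCGG, the Inhbb window held 1 GGGCGG, and the C1ql2 window held none of the motifs. The Tfcp2l1 window held 1 TATAAA, and the 3830432H09Rik and Marco windows held none. CpG dinucleotides numbered 20, 21 and 18 in the C1ql2, Inhbb and Ralb windows and 16, 2 and 0 in those of Tfcp2l1, 3830432H09Rik and Marco, against a median of 6 over all windows. Among windows not shown, those of Tmem185b (P019) and Nifk (P007) held 25 and 12 CpG. Behind E017 in minus, P019 in minus gave 4.60 and P007 in minus gave less. The window of Gli2 held 22, and P013 gave 10.9 in plus and 5.24 in minus. These counts describe a few sequences and were not tested.

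Alone, E017 was the most active single fragment of the library. In minus orientation it reached 31.3, 29.0 and 33.5 in replicates 1 to 3, a mean of 31.3 ± 2.27 (SD, n = 3). This was the highest of 467 oriented fragments with a value alone. In plus orientation it gave 14.9, 15.0 and 16.9, or 15.6 ± 1.15 (SD, n = 3), which ranked below 2 others. Between the orientations stood P007 in plus, the promoter of Nifk, a nucleolar protein gene, at 16.5. E060 in plus, a cCRE inside Tfcp2l1, followed at 15.5. The median single fragment gave 0.0979. A construct with no fragment at either place gave 0.0460, 0.0658 and 0.0654, and 86 single fragments lay below the lowest of these. The table also lists an empty fragment alone, at 0.161, 0.186 and 0.190, with 292 single fragments below the lowest value. These levels of an empty construct differ, and how their constructs differ is not given in the sources used here.

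Placed second behind another cCRE, E017 gave high activity with every partner. The 445 constructs ran from 7.61 to 74.3 with a median of 25.9, and their middle 50% lay between 20.6 and 30.3, a ratio of 1.47. The replicate medians were 25.5, 24.5 and 27.2. Against the partner alone, limma on log2 activities with Benjamini-Hochberg (BH) adjustment over all pairs of the library called 444 of 444 testable constructs higher, at a median log2 difference of 7.77. Of all cCRE pairs, 35.3% were called higher than their first fragment alone.

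The lowest rises belonged to partners that were themselves strong. E060 in plus, 15.5 alone, gave 24.6, 22.8 and 21.5 before E017 in plus, higher than the partner by 0.56 ± 0.18 (log2, SE; limma adjusted p = 0.035). With E017 in minus the difference was 0.59 ± 0.19 (adjusted p = 0.035). Neither was called with the replicate as a block (limma adjusted p = 0.066 and 0.064), nor without replicate 1, 2 or 3 (adjusted p from 0.073 to 0.18). E060 in minus rose by 1.14 and 1.24 with E017 in minus and plus, and E166 in minus rose by 2.31 with E017 in minus. E301 in plus, a cCRE 25070 bp from the listed start of Marco, went from 4.90 alone to 30.0 before E017 in minus.

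The highest rises came with partners that were low alone. E206, which overlaps Ptpn4, a tyrosine phosphatase gene, gave 0.0392 alone in plus. Before E017 in plus it gave 70.2, 73.4 and 79.4, a log2 difference of 10.97 ± 0.35 (SE; limma adjusted p = 6.0e-06). This was the highest activity of all constructs in the library, and its 3 replicates lay above those of every other construct with E017. Before E017 in minus the same E206 fragment gave 45.1, 47.0 and 45.2. E217 in minus, E016 in plus and E145 in plus completed the 5 largest differences, each with E017 in minus, at 10.07, 10.06 and 10.05. E016 lies inside Tsn. The partners of the 5 largest differences had activities alone of 0.0328 to 0.0392, below both kinds of empty construct, so the sizes rest on very low values. All of the 10 and all of the 50 most active constructs of the library held E017 as second fragment, as did 98 of the highest 100.

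Placed second behind a promoter, E017 again gave high activity with every partner. The 51 constructs spanned 8.02 to 40.4 with a median of 27.4. Limma called 51 of 51 higher than the promoter alone, with a median log2 difference of 7.36, where 23.3% of all promoter-first constructs were called higher. The smallest differences were those of promoters active by themselves. P007 (Nifk) in plus rose from 16.5 to 35.7 with E017 in minus, a log2 difference of 1.11 ± 0.18 (SE; limma adjusted p = 0.0022), and by 1.29 with E017 in plus. P019 in plus, the promoter of the membrane protein gene Tmem185b, rose from 8.69 to 28.9 with E017 in minus, a log2 difference of 1.73, and to 24.5 with E017 in plus. P018 in plus, the promoter of the small GTPase gene Ralb, rose by 2.08 with E017 in plus.

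The largest differences were found with promoters that were low alone. P031 in plus, the promoter of C1ql2, a secreted C1q-like protein gene of neurons, rose by 9.74 ± 0.41 (log2, SE; limma adjusted p = 1.1e-05) with E017 in minus. P023 in plus with E017 in plus rose by 9.69 ± 0.78 (SE). P031 in minus, P027 in plus and P015 in minus, all with E017 in minus, rose by 9.58, 9.56 and 9.44. Mean activities of these promoters alone were 0.0369 to 0.0420, below both kinds of empty construct, so the sizes rest on very low values. P023 in plus alone gave 0.00755, 0.0682 and 0.0349. P027 holds the 5′ end of Tmem37, a calcium channel subunit-like gene. Their levels with E017 were nonetheless ordinary for the class. P027 with E017 in minus gave 29.4, 30.4 and 30.2, which overlapped the values of E017 in minus alone.

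Set against E017 alone in the same orientation, most constructs with E017 second stayed near its own level. Behind a cCRE, the median log2 difference was 0.15, with 116 of 445 called higher and 19 lower by limma. In the same comparison over all pairs with the baseline fragment second, 34.4% were called higher and 17.9% lower. The calls were uneven between orientations. With E017 in plus, 114 of 238 were higher and 4 lower at a median of 0.51, whereas with E017 in minus 2 of 207 were higher and 15 lower at a median of −0.06. Without replicate 1, 2 and 3 the 15 fell to 7, 0 and 0, and the 4 to 3, 0 and 1. Each orientation has 1 baseline, the single value of E017 alone per replicate, which all its comparisons share. The 116 higher calls fell to 60, 7 and 29 without replicate 1, 2 and 3. Behind a promoter, 10 of 51 were higher and 3 lower at a median of 0.12, against 32.1% and 18.8% of all promoter-first constructs set against their cCRE, and the 10 fell to 8, 3 and 5 without replicate 1, 2 and 3.

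The strongest increases over E017 alone were those of E206 in plus (2.25 ± 0.18, log2, SE; limma adjusted p = 1.3e-04), E102 in minus (1.43), which lies inside Gli2, and E263 in plus (1.26), all before E017 in plus. The strongest decreases were those of P007 in minus before E017 in minus (−1.23 ± 0.20, SE; limma adjusted p = 0.0027) and of E049 in minus before E017 in plus (−1.04 ± 0.18, SE; adjusted p = 0.0040). E049 lies inside Clasp1, a microtubule regulator gene, and the pair gave 7.19, 7.25 and 8.37, the lowest of the 445. P012, which begins just inside Tfcp2l1, was lower in minus before both orientations of E017, at −0.98 with plus and −0.86 with minus. Without replicate 2 the E049 and both P012 calls were lost (limma adjusted p = 0.060, 0.10 and 0.10), and without replicate 3 that of P012 with E017 in minus (0.079).

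Placed first before a cCRE, E017 gave lower and more variable activity. The 319 constructs ran from 0.375 to 21.7 with a median of 3.34, and their middle 50% lay between 2.07 and 5.23, a ratio of 2.53. Limma called 309 of the 312 with a partner value higher than the partner alone, and none lower, at a median log2 difference of 4.93. Of all pairs, 34.0% were called higher than their second fragment alone. The 3 that were not called were E301 in minus (0.12 ± 0.18, SE; limma adjusted p = 0.60) and E060 in plus behind both orientations of E017. For E060 in plus the difference was −0.24 ± 0.19 behind E017 in plus (SE; adjusted p = 0.33) and 0.15 ± 0.18 behind E017 in minus (adjusted p = 0.51). E060 in minus and E166 in minus were higher by 0.59 and 0.71. The E060 call was lost with the replicate block (limma adjusted p = 0.063) and without replicate 1, 2 or 3 (0.070, 0.19 and 0.15), and the E166 call without replicate 2 or 3 (0.16 and 0.086).

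The largest differences with E017 first were those of E290 in plus (8.42 ± 0.39, log2, SE; limma adjusted p = 3.4e-05), E238 in minus (7.68), E295 in plus (7.51), E251 in plus (7.49) and E190 in minus (7.42). E290 gave 0.0295 alone and 10.5, 8.42 and 9.17 behind E017 in minus. The partners named here gave 0.0295 to 0.0641 alone, so these sizes too rest on very low values. E290 and E295 lie between genes, E238 inside Sctr, the secretin receptor gene, E251 inside 3110009E18Rik and E190 inside Epb41l5. The highest level with E017 first was that of E271 in minus, at 23.1, 20.5 and 21.6, although E271 alone gave only 0.242. E271 holds the listed start site of Steap3, an iron reductase gene.

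All 319 constructs with E017 first were below E017 alone. Limma called 318 of them lower at a median log2 difference of −3.19 ± 0.04 (SD of the replicate medians, n = 3), a 9.14-fold lower level. Of all pairs with the baseline fragment first, 24.8% were called lower. The exception was E017 in plus before E060 in plus, at −0.24 ± 0.19 (SE; limma adjusted p = 0.31). At the other end, E093 in plus behind E017 in minus gave 0.308, 0.410 and 0.408, a log2 difference from E017 alone of −6.39 ± 0.21 (SE; limma adjusted p = 1.1e-05). E093 lies inside Gli2, a Hedgehog pathway transcription factor gene. E291 in minus and E288 in both orientations lie between genes and followed at −6.20, −5.86 and −5.78.

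Placed first before a promoter, the class by which E017 was picked, activity spread over the promoters. The 34 constructs, 33 of them with E017 in minus, ran from 0.499 to 24.0 with a median of 4.69, and their quartiles differed 6.71-fold. All 33 with a promoter value were higher than the promoter alone, at a median log2 difference of 4.29 ± 0.28 (SD of the replicate medians, n = 3). Of all cCRE-first promoter constructs, 23.8% were called higher, and nothing is read from this since the choice of E017 used these values. All 34 were lower than E017 alone, at a median of −2.74. Of the 34 values, the highest level and the lowest lay 48.2-fold apart.

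The highest levels came from the Ralb, Ptpn4 and Tmem177 promoters and from 1 fragment inside Tfcp2l1. Behind E017 in minus, P018 (Ralb) in plus gave 21.5, 24.6 and 26.0, and P022 in plus, at the 5′ end of Ptpn4, gave 18.4, 19.2 and 20.3. P012 gave 15.8 ± 1.52 (SD, n = 3) in plus, and in minus 17.4, 15.7 and 18.2. P012 was low alone, at 0.117 in plus and 0.156 in minus, whereas P018 and P022 in plus were not. P024 in plus, the promoter of the mitochondrial protein gene Tmem177, gave 14.3, 13.8 and 15.0. P018 in minus reached 13.8 ± 0.938 (SD, n = 3).

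A middle group of constructs reached 4.92 to 11.5. P031 (C1ql2) gave 12.1, 11.6 and 10.9 in plus and 10.3, 7.88 and 8.09 in minus, from 0.0417 and 0.0420 alone. P017, the promoter of the inhibin subunit gene Inhbb, gave 11.4, 10.3 and 11.6 in plus from 0.0385 alone. This was the largest log2 difference of the class at 8.43, from a value below both kinds of empty construct. P013, at the start of Gli2, gave a mean of 10.9 in plus and 5.24 in minus. P025 in plus, which holds the starts of Cfap221 and Gm33817, gave 10.4. P010, inside Clasp1, gave 10.1 in plus and 9.30 in minus. It was active alone in both orientations, at 4.78 and 5.16, and had the smallest differences of the class, 1.08 and 0.85. P016 in minus gave 5.36, and P014 in plus, upstream of Gli2, gave 4.92.

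The remaining constructs stayed under 5. P024 in minus gave 4.79, P019 (Tmem185b) in minus 4.60, P021 in minus, inside the gene of the cytoskeletal protein Epb41l5, 4.41, and P006 in plus, the neighbour of E017, 4.20. P014 in minus gave 3.95, P025 in minus 3.38, P022 in minus 2.94 and P016 in plus 2.55. P007 (Nifk) in minus gave 1.64, and P006 in minus 1.37. P020, the promoter of the long non-coding RNA 3830432H09Rik, gave 1.60 in plus and 1.37 in minus. P011, the promoter of Tfcp2l1, a transcription factor gene of naive pluripotency, gave 1.01, 0.940 and 1.35 in minus, and its plus orientation is not among the 34. Its level in plus behind E017 is therefore unknown. Behind E060 in minus, P011 gave 11.3, 11.4 and 10.2 in plus and 3.17, 3.02 and 2.55 in minus. P031 in minus gave 2.74, 2.26 and 2.67 behind E060 in minus, so P011 in minus was low beside it with E017 and not with E060. P015 gave 0.964 in plus and 0.499 in minus, the lowest of all. P033, the promoter of the macrophage receptor gene Marco, gave 0.910 in plus and 0.788 in minus behind E017 in minus.

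Promoters that were all very low alone thus ended at different levels behind E017. P031 in plus and P017 in plus at 0.0417 and 0.0385 alone reached 11.5 and 11.1, while P033 in minus and P015 in minus at 0.0434 and 0.0381 reached 0.788 and 0.499. Behind E017, the replicates of these pairs of promoters did not overlap. Their values alone lay below both kinds of empty construct and varied between replicates, with P017 in plus at 0.0138, 0.0376 and 0.0640. E060 in minus gave 3.96 with P031 in plus and 4.20 with P017 in plus, and 0.772 with P033 in minus. P020 and P033 in plus were also low with it, at 0.860 and 0.920. Other promoters were not split in the same way. P031, P011 and P020 in minus gave 2.56, 2.91 and 2.37 behind E060 in minus, against 8.75, 1.10 and 1.37 behind E017 in minus. Over the 34 constructs, log2 activity with E017 first and with E060 first had a Pearson r of 0.78. Here E060 was averaged over the orientations measured, and P033 in minus entered with both orientations of E017. With the promoter's own log2 activity r was 0.57 over 33. These points share libraries and several share a promoter fragment. In the 14 promoters measured in both orientations behind E017 in minus, plus was the higher in 12, by 6.55-fold at P022 and 3.09-fold at P025. The smallest of the 12 ratios were 1.09 at P010, 1.15 at P033 and 1.17 at P020, where the replicates of P020 overlapped. P016 and P012 gave plus over minus ratios of 0.475 and 0.925.

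The cCREs whose differences over promoters were most like those of E017 were E166, with a Pearson r of 0.92 over 32 oriented promoters, E188 with 0.88 over 27, and E060 with 0.88 over 32. Over the 140 cCREs with at least 10 shared oriented promoters the median r was −0.01. All cCREs are set against the same promoter values, which raises such an r.

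When the same fragments were compared in both orders, E017 second was the more active. Of 190 pairs of E017 with a cCRE measured in both orders, all 190 gave lower activity with E017 first, and limma called 188 of them. Either way, 38.7% of all such pairs were called. The mean log2 difference of E017 first minus second was −3.03 ± 0.07 (SD of replicate means, n = 3), with −3.11, −2.97 and −3.02 in the replicates. The largest difference was that of E291 in minus, at −6.30 ± 0.23 (SE; limma adjusted p = 2.5e-04), and E068 in minus, E178 in plus, E257 in minus and E143 in plus followed at −5.69 to −5.27. The 2 pairs that were not called were both orientations of E060 with E017 in minus, at −0.44 ± 0.20 for plus (SE; limma adjusted p = 0.14) and −0.56 ± 0.19 for minus (adjusted p = 0.063).

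With promoters the direction was the same in all 23 pairs measured in both orders, and the class that chose E017 supplied 1 side of each. The values are therefore described and not tested. The median log2 difference of E017 first minus second was −2.83. P015 in minus differed most, at −5.64, followed by P033 in plus at −5.05 and P020 in minus at −4.67. P012 in minus gave −0.01 ± 0.20, P018 in plus −0.40 ± 0.20 and P012 in plus −0.55 ± 0.20 (SE), the smallest of the 23. P012 in minus gave 17.4, 15.7 and 18.2 behind E017 in minus and 18.2, 15.3 and 18.3 before it, so the replicates of both orders overlapped.

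The mean log2 difference of a cCRE second minus first was 3.03 for E017, the highest of 130 cCREs with at least 20 pairs in both orders. It was 2.23 ± 0.17 for E111, the next, 1.45 ± 0.03 for E060, 0.96 ± 0.04 for E166 and 0.19 ± 0.02 for E301 (SD, n = 3), and the median over cCREs was −0.31. Each pair entered the means of both its cCREs with opposite sign, so pairs with E017 lowered the means of its partners. The cCREs also differed in their partners, with 190 pairs for E017, 20 for E111 and 394 for E060. The replicate ranges of E017 and of these 4 did not overlap, which is a description, since the difference was not tested.

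Levels with E017 first and second did not follow each other over the partners. Over 176 partners of E017 in minus, log2 activity with E017 first and second had a Pearson r of −0.24. With E017 first, log2 activity and the partner's own log2 activity had an r of 0.43 over 312 constructs, and with E017 second −0.07 over 444. Partners with at least 1 alone gave a median of 7.36 with E017 first, those at 0.1 to 1 gave 3.75 and those under 0.1 gave 2.73. With E017 second the same classes gave 25.9, 25.5 and 26.6. These constructs share fragments and libraries. Distance on the chromosome between E017 and its partner had a Pearson r with log2 activity between 0.002 and 0.08 in all 4 classes of construct.

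The orientation of E017 was compared with the partner, its orientation and the position held fixed. As second fragment behind a cCRE, plus was lower than minus in 171 of 190 partners, with a mean log2 difference of −0.42 ± 0.05 (SD of replicate means, n = 3), and limma called 50 lower and 1 higher. Behind a promoter the mean was −0.51 ± 0.06, with 9 of 22 lower, and as first fragment before a cCRE it was −0.61 ± 0.10, with 7 of 19 lower and none higher in either class. Over all cCREs the same comparisons called 16.3%, 18.5% and 10.3% lower, and behind a cCRE 18.1% higher. With the replicate as a block, 18, 6 and 4 were called lower and none higher. Without replicate 1, 2 or 3, the calls over all classes fell from 67 to 2, 0 and 0, where 41, 27 and 45 had an unadjusted p under 0.05. The counts of partners below 0 were 170, 171 and 173 of 190 without replicate 1, 2 and 3. The only construct of E017 in plus before a promoter, with P033 in minus, differed from its minus counterpart by 0.19 ± 0.17 (SE), which was not tested.

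The only partner called in the other direction was E206 in plus, with E017 in plus higher by 0.70 ± 0.18 (SE; limma adjusted p = 0.033, not called with the replicate block). The largest differences towards minus were those of E049 in minus (−1.47), P012 in minus (−1.12) and, with E017 first, E108 in minus (−1.83). Alone, E017 in minus was 2.00-fold higher than in plus, with log2 differences of 1.07, 0.95 and 0.98 in replicates 1 to 3. The 3 replicate differences alone were all larger than the 3 replicate means behind a cCRE, an exact two-sided paired permutation p of 0.25, the smallest that 3 pairs allow.

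Activity was further set against the sum of the 2 fragments alone. With E017 first, 312 of 312 constructs were called below the sum by limma, at a median log2 difference of −3.20. With E017 second, 132 of 444 were above and 33 below, at a median of 0.13. Of all cCRE pairs, 13.4% were called above and 51.4% below. Most partners were below 1 alone, so the sum lay close to E017 alone. This comparison therefore largely repeats the one with E017 alone. In that comparison, 114 of the 116 higher calls had E017 in plus, with 1 shared baseline. E206 in plus before E017 in plus exceeded the sum most, by 2.25 ± 0.16 (SE; limma adjusted p = 2.9e-04). The 132 fell to 66, 15 and 52 without replicate 1, 2 and 3, and the 33 below to 12, 5 and 7.

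Finally, E017 was compared in cCRE pairs with E060, E301 and E166, 3 of the other cCREs that were active alone, over the partners, orientations and positions that both were measured with. E017 was higher than E060 by 0.78 ± 0.12 (log2, SE; 720 matched constructs; limma adjusted p = 5.8e-05, over these 3 comparisons), than E166 by 2.17 ± 0.12 (434; adjusted p = 2.8e-09) and than E301 by 2.38 ± 0.12 (266; adjusted p = 2.5e-09). In a limma fit over all 193 cCREs with at least 20 matched constructs, E017 was higher than each. Split by position, a step added after seeing the data, the gap to E060 was 0.16 ± 0.12 with both first (95% interval −0.10 to 0.43; 306 constructs; limma adjusted p = 0.21) and 1.24 ± 0.12 with both second (414; adjusted p = 1.4e-06). With both first, E017 exceeded E166 by 0.66 and E301 by 0.66, and with both second by 2.73 and 3.23. As first fragment, the median log2 difference from their own activity alone was −3.19 for E017, −1.51 for E060, −0.86 for E166 and −0.39 for E301.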

How the data were processed

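The cDNA samples of the Tfcp2l1 Upstream library mix (3 biological replicates) were grouped by their titles, and 2 plasmid samples served as input per the labels. The authors' deposited activity is, for each replicate, the ratio of barcode abundance in cDNA over pDNA. Its scaling and barcode filters are not given in the sources used here, and with no barcode counts the depth is unknown. Bowtie2 and mm10 come from the submitters' processing notes. Of the deposited value columns, 3 hold means over replicates and were not used.

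Log2 activities were fitted with limma 3.58.1 in R 4.3.3 (Python 3.11.15, pandas 2.3.3), 3 construct values against 3 baseline values, with BH adjustment at 0.05 over all constructs of a class in the library. Constructs with a replicate at 0 (9.73% of the library, none with E017) were left out. Construct and baseline come from the same 3 samples, so replicate numbers pair them, and a fit with the replicate as a block was the alternative. Correlations of their deviations in the 3 replicates were 0.10, −0.06 and 0.03 for E017 second against the cCRE partner alone (444 constructs) and 0.07 to 0.17 between the 2 orders (190 pairs). Replicates of E017 constructs had r of 0.99 and a median coefficient of variation of 7.23%. The fit of cCRE pairs against the first fragment alone was tried on simulated data with independent noise. Those data held no baseline shared by many comparisons, so they do not bear on the counts against E017 alone.

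Partners named are every promoter placed second, the 5 highest and 5 lowest differences in each other class, E060, E301 and E166, and the 3 cCREs most like E017. Others (single fragments, largest order, orientation and sum differences, highest levels) were chosen after their values were seen. The members and lists were chosen with earlier results of these data known. The sequence of E017 is not shown. The alternatives are a pseudocount of 0.01, replicates centred, a minimum of 0.05, other baselines, a variance trend and leaving out each replicate.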

Additional observations from a re-analysis of the deposited data

How the results depend on the processing

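The counts against the partner alone, the order counts and the comparisons with E060, E301 and E166 stayed within 1.5 times or on their side of the threshold under every alternative tried. Baselines other than the partner alone gave other values. Against E017 alone the median for promoters placed second turned to −2.74, and 13 of 51 promoter-first constructs were called. With a variance trend, 192 pairs were called above E017 alone in place of 116, 49 in place of 15 below it with E017 second in minus, 79 in place of 33 below the sum with E017 second, and 176 orientation calls were made in place of 67. With the replicate block, the orientation calls fell to 28, and no other count against the partner, against E017 alone, between orders or against the sum moved by over 1.5 times, apart from the 2 pairs above E017 alone with E017 second in minus, which became 1. Leaving out 1 replicate gave 7 to 60 pairs above E017 alone and 0 to 2 orientation calls. Among single pairs, 8 values turned sign. With the baseline over both orientations, E017 in plus before E060 in plus gave 0.30, E017 in minus before E301 in minus −0.62 and E017 in minus before P007 in minus −1.02. The median construct as baseline gave −0.11 for the E301 pair. Leaving out 1 replicate, differences that were not called or not tested crossed 0: order with P012 in minus ran from −0.0378 to 0.013, and orientation ran from −0.25 to 0.0058 before E028 in minus, −0.38 to 0.48 before E156 in minus and −0.0014 to 0.047 behind P024 in plus. The depth behind each activity is unknown. E017 in plus was measured as first fragment with 19 cCREs and 1 promoter, so little can be said of that orientation there.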
